A study of Danio rerio with 12 samples.

Results

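The genes of the unfolded protein response and the integrated stress response were examined in zebrafish larvae exposed to compounds that activate LXR, the liver X receptor, which senses oxysterols in the nucleus and controls lipid genes. The set held 36 genes, chosen by name: 16 chaperones and folding enzymes of the endoplasmic reticulum (ER), 4 stress sensors and transcription factors, 6 genes of ER-associated degradation, and 10 factors and Atf4 targets of the integrated stress response. Probes were assigned through their RefSeq accession, and 34 of the 36 genes had at least 1 probe, out of 23645 genes tested on the array. The kinase genes ern1 (Ire1) and eif2ak3 (Perk) had no matched probe and were not analysed here. RNA came from pools of 30 whole wild-type WIK larvae that, between days 4 and 6 after fertilization, swam in medium with T0901317, with GW3965 or with vehicle alone. Both agonists are synthetic, nonsteroidal LXR ligands of different chemical structure. The labels give 2 mM for T0901317 and 1 mM for GW3965, printed here only as labelled, so the doses differ between the agonists. All larvae, the controls included, received 0.1% DMSO, and the treatments were renewed after 24 h. Each group had 4 arrays, and following the study's design text T0901317 replicate 2 was left out, which gave 3 T0901317, 4 GW3965 and 4 DMSO arrays.

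Proteins that fold in the ER are helped by chaperones of the Hsp70 and Hsp90 families, by lectins and by disulfide isomerases. When unfolded protein accumulates, the sensors Ire1, Atf6 and Perk respond: Ire1 splices the xbp1 mRNA, Atf6 is cut by proteases of the Golgi to release a transcription factor, and Perk phosphorylates the translation factor eIF2 alpha. Xbp1 and Atf6 raise chaperone and degradation genes. Phosphorylated eIF2 alpha, which other kinases of amino acid shortage, haem shortage and double-stranded RNA produce as well, favours translation of Atf4 and so raises genes of amino acid supply and of stress signalling. In mice, LXR is known to affect ER stress through the phospholipids of the ER membrane. The arrays measured RNA levels, so neither xbp1 splicing nor eIF2 alpha phosphorylation was measured.

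Values of single arrays are given below as log2 signal relative to the 75th percentile of the same array, so 0 is the level of a fairly bright probe. Levels of different genes come from different probes and are not set against each other. Fold changes are log2 differences of group means, each ± its standard error (SE) from limma, and a gene was called at a Benjamini-Hochberg adjusted p under 0.05 over all 23645 genes. On the 11 arrays the 75th percentile was 332 to 390 intensity units, and the share of probes well above background was 81.7% to 82.3% in T0901317 larvae and 78.8% to 82.1% in GW3965 larvae, against 82.2% to 83.2% in DMSO larvae. Each group was run on a slide and in a scan of its own, so the effects of slide, scan and treatment cannot be told apart. As a check that the agonists acted, fads2, a fatty acid desaturase gene that rises with LXR activation, was higher by 4.14 ± 0.11 in T0901317 larvae and by 3.96 ± 0.10 in GW3965 larvae than in DMSO larvae (n = 3 and 4 against 4, limma adjusted p below the threshold for both).

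By the brightest probe of each gene, herpud1 with GW3965 was the only stress response gene called against DMSO. The counts below stand beside the shares of all genes, and a gene that was not called is not thereby shown to be unchanged. With T0901317, 0 of the 34 genes were called (2.58% of all genes were, 1.58% as higher and 0.998% as lower), and 4 had an unadjusted p under 0.05 in the limma fit (14.9% of all genes): herpud1 and atf3 were higher, pdia4 and p4hb lower. With GW3965, 1 of the 34 was called, herpud1, which rose (5.69% of all genes were called, 1.22% as higher and 4.47% as lower), and 5 had an unadjusted p under 0.05 (19.6% of all genes): syvn1, herpud1, derl1 and atf3 were higher, pdia3 lower. By direction, 2 of 34 were higher and 2 lower with T0901317 at this unadjusted threshold, against 9.44% and 5.43% of all genes, and 4 were higher and 1 lower with GW3965, against 7.87% and 11.7%. For all 34 genes the 95% interval of the fold change of the brightest probe lay within 2-fold either way in both comparisons. The same held for 91.1% of all genes with T0901317 and 91.9% with GW3965. The interval lay within 1.5-fold either way for 29 genes with T0901317 and 28 with GW3965 (72.2% and 74.2% of all genes). These counts leave out the dimmer probes, of which a pdia4 probe was at -1.10 ± 0.25 with T0901317 and -0.76 ± 0.23 with GW3965.

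The median log2 fold change of the 34 genes was 0.0049 with T0901317, and that of all genes was 0.036. Above 0 were 18 of the 34 genes and 59.0% of all genes. With GW3965 the median was 0.071, and that of all genes was 0.0095. Here 24 of the 34 genes and 51.9% of all genes were above 0. Of the 34 genes, 26 were among the 7882 genes with the highest mean level. The medians of these brightest genes were 0.027 with T0901317 and 0.069 with GW3965. Point estimates ran between -0.46 (hyou1) and 0.58 (atf3) with T0901317, and between -0.40 (hyou1) and 0.50 (atf3) with GW3965. The 2 comparisons share the same DMSO arrays.

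**Figure D1:**
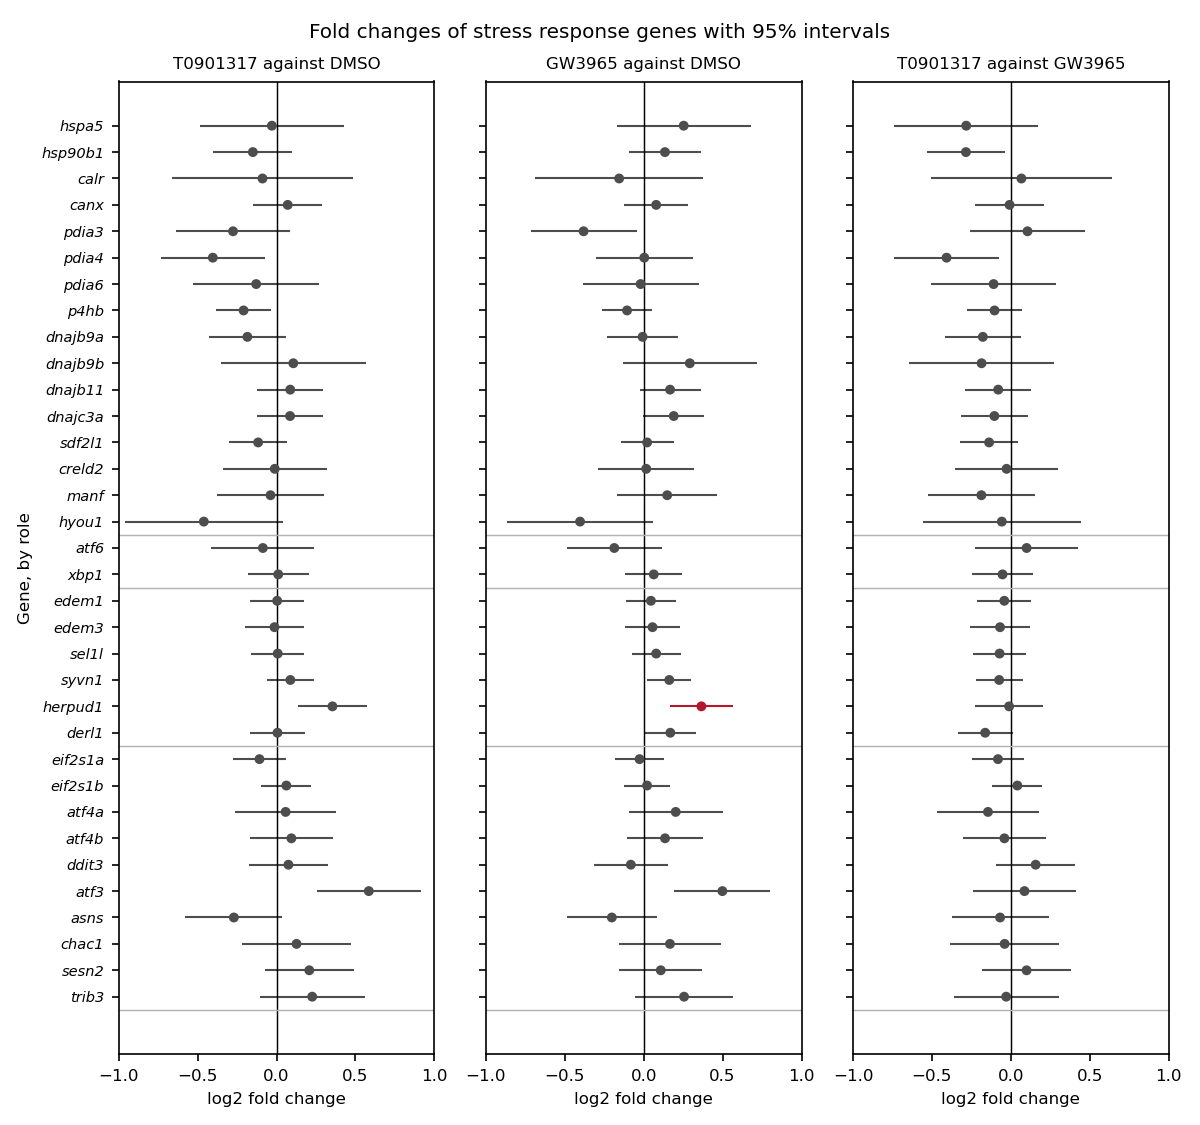
Log2 fold changes of the 34 stress response genes (rows, by role: ER chaperones and folding enzymes, sensors and transcription factors, ER-associated degradation, integrated stress response) in 3 comparisons. Points are limma estimates for the brightest probe of each gene, and bars the 95% intervals. Red marks an adjusted p under 0.05, which applies to herpud1 with GW3965 only. All bars stay inside 1 log2 unit.

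Among the 16 ER chaperones and folding enzymes, 0 were called in either comparison with DMSO. Their median was -0.10 with T0901317, with 12 of 16 below 0, and 0.02 with GW3965, with 6 of 16 below 0. These counts depended on the probe rule. With the mean over probes, 11 of 16 were below 0 with T0901317 (median -0.068) and 9 of 16 with GW3965 (median -0.018). The Hsp70 chaperone gene hspa5 (BiP), the usual reporter of ER stress, had 4.57, 4.65 and 4.90 in T0901317 larvae, 4.99, 4.62, 5.54 and 4.82 in GW3965 larvae, and 5.06, 4.74, 4.43 and 4.72 in DMSO larvae. The groups overlapped, and GW3965 replicate 3 was the highest array. Its fold change was -0.03 ± 0.21 with T0901317 (adjusted p 0.975) and 0.25 ± 0.19 with GW3965 (adjusted p 0.519), with 95% intervals of the linear fold of 0.71 to 1.35 with T0901317 and 0.89 to 1.60 with GW3965. The Hsp90 chaperone gene hsp90b1 (Grp94) had 3.05, 3.14 and 3.08 in T0901317 larvae, 3.34, 3.25, 3.67 and 3.23 in GW3965 larvae, and 3.28, 3.07, 3.27 and 3.33 in DMSO larvae. Its T0901317 arrays overlapped the low end of the DMSO arrays, and its fold changes were -0.15 ± 0.11 with T0901317 and 0.13 ± 0.10 with GW3965. The lectin chaperones calr and canx, which retain glycoproteins until they are folded, had -0.09 ± 0.26 and 0.07 ± 0.10 with T0901317 and -0.16 ± 0.24 and 0.08 ± 0.09 with GW3965. Calr varied most between arrays of the same group of all the 34 genes (pooled within-group SD 0.38).

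The disulfide isomerases of the ER, which form and rearrange disulfide bonds, gave the lowest p-values of the folding genes. Pdia4 had 0.65, 0.78 and 0.44 in T0901317 larvae, 1.03, 0.83, 1.46 and 0.79 in GW3965 larvae, and 0.99, 1.04, 1.07 and 1.01 in DMSO larvae. All 3 T0901317 arrays lay below all DMSO arrays, and the GW3965 arrays lay on both sides of them. The fold change with T0901317 was -0.40 ± 0.15 (n = 3 against 4, adjusted p 0.226). Pdia3 had 2.93, 2.94 and 2.34 in T0901317 larvae, 2.80, 2.64, 2.76 and 2.32 in GW3965 larvae, and 3.18, 3.04, 3.00 and 2.83 in DMSO larvae. The GW3965 arrays all lay below the DMSO arrays, with a fold change of -0.38 ± 0.15 (adjusted p 0.195), while the T0901317 arrays overlapped them (-0.28 ± 0.16). Pdia3 passed the threshold in 1 of 22 other settings, the fit blocked on replicate number (limma adjusted p 0.029). P4hb, the isomerase that is also a subunit of prolyl hydroxylase, had -0.21 ± 0.08 with T0901317 (adjusted p 0.233) and -0.11 ± 0.07 with GW3965. Its 4 probes ranged between -0.21 and 0.09 with T0901317, and the mean over probes gave -0.02. Pdia6 had -0.13 ± 0.18 with T0901317 and -0.02 ± 0.17 with GW3965. A dimmer pdia6 probe gave -0.22 ± 0.08 with T0901317 and -0.24 ± 0.08 with GW3965. On that probe every agonist array lay below every DMSO array, and neither comparison passed (limma adjusted p 0.274 and 0.137 over all probes).

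Hyou1, an Hsp110-type chaperone that exchanges nucleotide on BiP, had the lowest point estimates, with wide errors. It had -0.86, -0.75 and -1.45 in T0901317 larvae, -0.96, -1.16, -0.44 and -1.30 in GW3965 larvae, and -0.24, -0.53, -0.77 and -0.70 in DMSO larvae. On this brightest probe both agonist groups overlapped DMSO, and the fold changes were -0.46 ± 0.23 with T0901317 (adjusted p 0.388) and -0.40 ± 0.21 with GW3965 (adjusted p 0.326). A dimmer hyou1 probe gave -0.59 ± 0.24 with T0901317, all arrays just below DMSO, and -0.45 ± 0.22 with GW3965. Another gave -0.12 ± 0.15 with T0901317 and -0.45 ± 0.14 with GW3965 (limma adjusted p 0.119 over all probes). Neither dimmer probe was called. None of the genes of J-domain proteins, which direct BiP to its substrates, was called. With T0901317, dnajb9a, dnajb9b, dnajb11 and dnajc3a had -0.18, 0.11, 0.09 and 0.09, and with GW3965 -0.01, 0.29, 0.17 and 0.19. A dimmer dnajb11 probe gave -0.13 ± 0.21 with T0901317 and -0.53 ± 0.19 with GW3965 (limma adjusted p 0.178 for GW3965 over all probes). On that probe every GW3965 array lay below every DMSO array. The dnajb9b estimates rest in part on DMSO replicate 3, which at -2.16 stood apart from the other DMSO arrays. Sdf2l1, which works with the J-domain proteins, had -0.12 with T0901317 and 0.02 with GW3965. The folding factor creld2 had -0.01 with T0901317 and 0.02 with GW3965, and the secreted ER stress protein manf -0.04 and 0.15. A dimmer creld2 probe gave 0.47 ± 0.14 with T0901317 (limma adjusted p 0.165 over all probes) and 0.08 ± 0.13 with GW3965. On that probe every T0901317 array lay above every DMSO array. The mean over creld2 probes was 0.23 with T0901317.

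**Figure D2:**
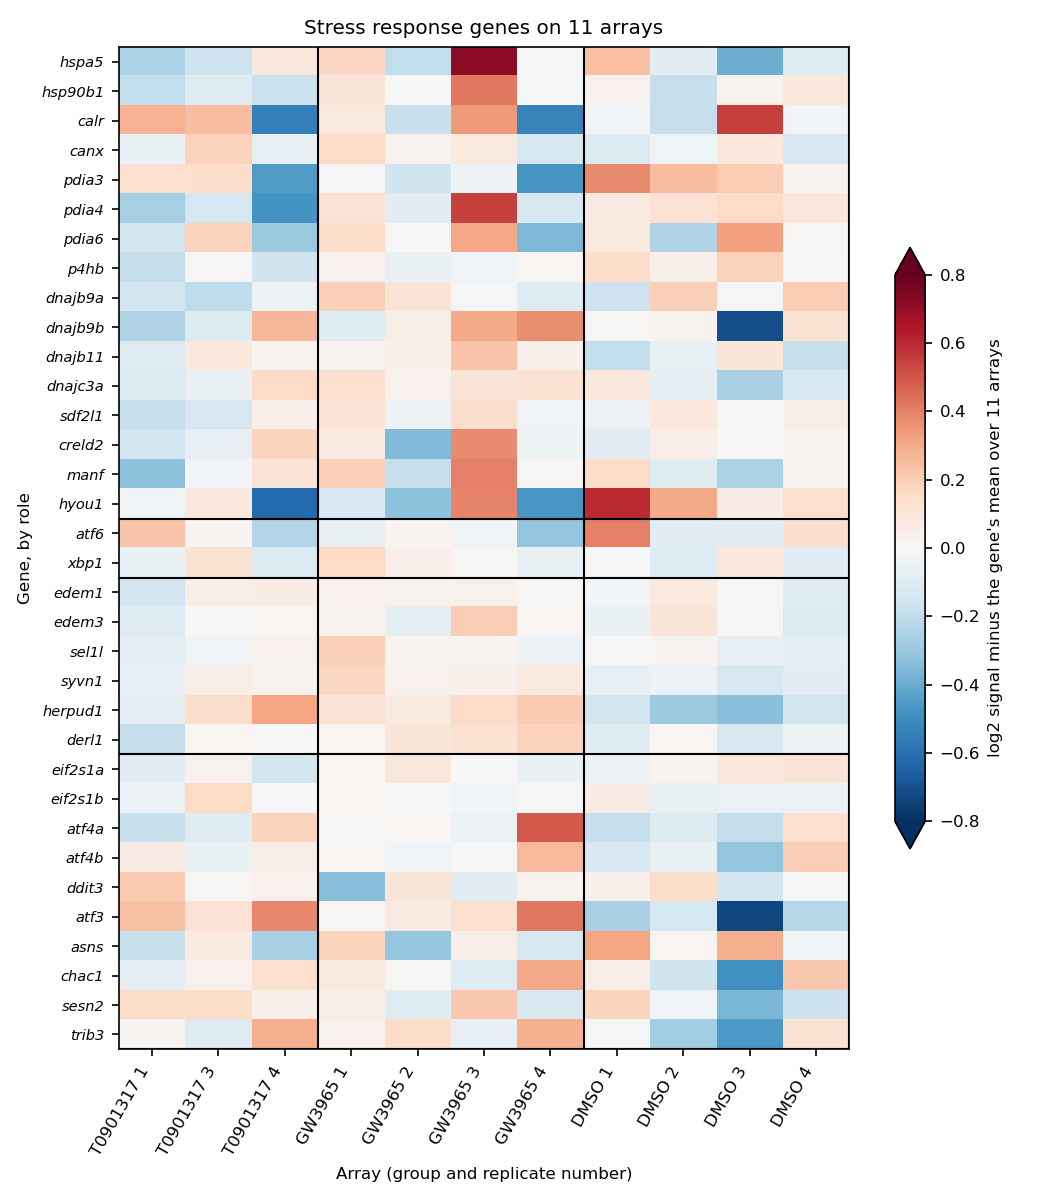
Log2 signal of the 34 genes (rows, in 4 blocks by role) on each of the 11 arrays (columns, T0901317, GW3965, DMSO), as the difference from the gene's own mean over the arrays. Black lines separate groups and roles, and colours end at 0.8 either way. Atf3 and herpud1 are low on all 4 DMSO arrays, and GW3965 replicate 3 is dark for hspa5, pdia4, hsp90b1, manf and creld2.

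Of the sensors and transcription factors, atf6 and xbp1 had probes, and 0 of the 2 were called. Xbp1 RNA had 3.34, 3.51 and 3.27 in T0901317 larvae, 3.55, 3.43, 3.40 and 3.33 in GW3965 larvae, and 3.39, 3.28, 3.47 and 3.30 in DMSO larvae. The groups overlapped fully, with 0.01 ± 0.09 for T0901317 and 0.06 ± 0.08 for GW3965, so the 95% intervals of the linear fold were 0.88 to 1.15 with T0901317 and 0.92 to 1.18 with GW3965. Atf6 had -1.09, -1.29 and -1.54 in T0901317 larvae, -1.37, -1.29, -1.34 and -1.63 in GW3965 larvae, and -0.91, -1.40, -1.40 and -1.17 in DMSO larvae. These groups overlapped too, with -0.09 ± 0.15 for T0901317 and -0.19 ± 0.14 for GW3965. The sign for atf6 depended on the probe: its second probe gave 0.22 ± 0.14 with T0901317 and 0.23 ± 0.13 with GW3965. The mean over atf6 probes was 0.07 with T0901317 and 0.02 with GW3965.

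The 6 genes of ER-associated degradation, which carry misfolded proteins out of the ER to the proteasome, had a median of 0.0067 with T0901317 (5 of 6 above 0) and of 0.12 with GW3965 (6 of 6 above 0). The 7882 brightest genes of the array had medians of 0.027 with T0901317 and 0.069 with GW3965. Herpud1, which organizes the degradation complex at the membrane, was the only called gene of the set. It had 2.5, 2.72 and 2.89 in T0901317 larvae, 2.69, 2.65, 2.73 and 2.79 in GW3965 larvae, and 2.43, 2.29, 2.24 and 2.43 in DMSO larvae. Every array of both agonist groups lay above every DMSO array. In GW3965 larvae herpud1 rose by 0.37 ± 0.09, or 1.29-fold (n = 4 against 4, adjusted p 0.0414). In T0901317 larvae it was 0.35 ± 0.10 higher, or 1.28-fold, and was not called (n = 3 against 4, adjusted p 0.10). A second, dimmer probe of the gene gave 0.29 ± 0.13 with T0901317 and 0.17 ± 0.12 with GW3965, neither called (limma adjusted p 0.356 and 0.517 over all probes). On that probe the GW3965 arrays overlapped the DMSO arrays, while the T0901317 arrays lay above them. The GW3965 call lies close to the threshold and held in 8 of 22 other settings (adjusted p 0.0167 to 0.118). It was lost without any 1 of the 4 GW3965 or 4 DMSO arrays or without T0901317 replicate 3 (0.33 to 0.39, adjusted p 0.054 to 0.112).

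Syvn1 (Hrd1), the ubiquitin ligase of the degradation complex, had 1.37, 1.49 and 1.46 in T0901317 larvae, 1.59, 1.47, 1.47 and 1.51 in GW3965 larvae, and 1.37, 1.38, 1.30 and 1.34 in DMSO larvae. The GW3965 arrays all lay above the DMSO arrays, by 0.16 ± 0.06 (adjusted p 0.182), and the T0901317 arrays overlapped them (0.09 ± 0.07). Derl1, a channel protein of the same complex, had 1.64, 1.84 and 1.83 in T0901317 larvae, 1.84, 1.92, 1.95 and 2.01 in GW3965 larvae, and 1.73, 1.84, 1.69 and 1.78 in DMSO larvae. Its GW3965 arrays also lay above the DMSO arrays, by a small margin (0.17 ± 0.07, adjusted p 0.235), with 0.01 ± 0.08 for T0901317. Over all probes the GW3965 estimates ranged between -0.02 and 0.16 for syvn1 and between -0.07 and 0.17 for derl1. The adaptor sel1l and the mannosidase-like proteins edem1 and edem3 had fold changes between -0.01 and 0.08 with either agonist. Over the whole set, groups did not overlap for 3 genes with T0901317 (pdia4, herpud1 and atf3, against 12.5% of all genes). Of these 3, 2 were higher (7.97% of all genes) and 1 lower (4.58%). With GW3965 the groups did not overlap for 5 genes (pdia3, syvn1, herpud1, derl1 and atf3, against 14.5%), 4 of them higher (6.1%) and 1 lower (8.37%).

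Of the 10 integrated stress response genes 0 were called, with medians of 0.085 for T0901317 (8 of 10 above 0) and 0.12 for GW3965 (7 of 10 above 0). By their brightest probes, the eIF2 alpha genes eif2s1a and eif2s1b were among the steadiest of the set, with within-group SDs of 0.072 and 0.064 and fold changes between -0.11 and 0.06. A dimmer eif2s1a probe gave -0.24 ± 0.10 with T0901317 and -0.06 ± 0.09 with GW3965 (limma adjusted p 0.289 and 0.769 over all probes). On that probe every T0901317 array lay below every DMSO array. Atf4a had 4.93, 5.00 and 5.28 in T0901317 larvae, 5.1, 5.11, 5.06 and 5.59 in GW3965 larvae, and 4.91, 4.99, 4.91 and 5.23 in DMSO larvae. Replicate 4 was the highest array in each group, and the groups overlapped, with 0.06 ± 0.15 for T0901317 and 0.20 ± 0.13 for GW3965. Its paralog atf4b had 0.09 ± 0.12 with T0901317 and 0.14 ± 0.11 with GW3965. Ddit3 (Chop), a transcription factor that promotes cell death after long stress, had 3.29, 3.09 and 3.12 in T0901317 larvae, 2.75, 3.18, 2.99 and 3.11 in GW3965 larvae, and 3.12, 3.22, 2.93 and 3.08 in DMSO larvae. Its groups overlapped, with 0.08 ± 0.11 for T0901317 (linear interval 0.88 to 1.25) and -0.08 ± 0.11 for GW3965 (0.80 to 1.11).

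Atf3, a stress-induced transcription factor that is also an immediate early gene, had the largest point estimates of the set. It had 1.05, 0.93 and 1.2 in T0901317 larvae, 0.83, 0.89, 0.94 and 1.24 in GW3965 larvae, and 0.56, 0.68, 0.09 and 0.59 in DMSO larvae. No agonist array overlapped a DMSO array. The fold change was 0.58 ± 0.15 with T0901317 (1.5-fold, n = 3 against 4, adjusted p 0.0729) and 0.50 ± 0.14 with GW3965 (1.41-fold, n = 4 against 4, adjusted p 0.0636), so neither was called. Over 22 other settings the adjusted p ran from 0.0335 to 0.215 for T0901317, under the threshold in 1, and from 0.029 to 0.187 for GW3965, under it in 3. The estimates rest in part on DMSO replicate 3, the lowest DMSO array at 0.09. Without it the GW3965 estimate was 0.37, the lowest of these settings. Atf3 had 1 probe.

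None of the 4 Atf4 targets asns, chac1, sesn2 and trib3 was called. Trib3, a pseudokinase, had 0.23 ± 0.15 with T0901317 and 0.26 ± 0.14 with GW3965, and chac1, a glutathione-degrading enzyme, had 0.13 ± 0.16 with T0901317 and 0.17 ± 0.15 with GW3965. A dimmer chac1 probe gave 0.19 ± 0.14 with T0901317 and 0.38 ± 0.13 with GW3965 (limma adjusted p 0.612 and 0.156 over all probes). On that probe every GW3965 array lay above every DMSO array. Sesn2, a leucine sensor upstream of mTORC1, had 0.21 ± 0.13 with T0901317 and 0.11 ± 0.12 with GW3965. Its second probe gave 0.22 ± 0.15 with T0901317 and -0.21 ± 0.14 with GW3965. Asns, the asparagine synthetase gene that amino acid shortage induces through Atf4, was the only one of them below 0 with both agonists: it had -2.0, -1.75 and -2.08 in T0901317 larvae, -1.64, -2.13, -1.77 and -1.96 in GW3965 larvae, and -1.50, -1.80, -1.54 and -1.84 in DMSO larvae. These groups overlapped (T0901317 -0.27 ± 0.14, adjusted p 0.415, GW3965 -0.20 ± 0.13, adjusted p 0.433), and the second asns probe gave 0.23 with T0901317 and -0.06 with GW3965.

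Between the agonists, at different labelled doses, 0 of the 34 genes were called (5.4% of all genes were, 5.26% as higher and 0.135% as lower in T0901317 larvae). An unadjusted p under 0.05 in the limma fit was reached by 2 genes, both lower in T0901317 larvae, and 0 higher (13.5% of all genes, 2.56% lower and 10.9% higher). These were hsp90b1 (-0.28 ± 0.11, T0901317 minus GW3965, adjusted p 0.271) and pdia4 (-0.41 ± 0.15, adjusted p 0.218). With derl1 (-0.16 ± 0.08) they were also the 3 genes whose groups did not overlap on the brightest probe (15% of all genes), 3 lower and 0 higher in T0901317 larvae (4.58% and 10.4%). For derl1 the direction depended on the probe. A dimmer derl1 probe gave 0.13 ± 0.07 (limma adjusted p 0.552 over all probes), with every T0901317 array above every GW3965 array. Another gave -0.04 ± 0.11. The median over the 34 genes was -0.069, with 27 below 0, and that of all genes was 0.0079, with 51.9% above 0. The 7882 brightest genes, which hold 26 of the 34, had a median of -0.041. For the chaperones and folding enzymes 14 of 16 were below 0 with a median of -0.11. These counts depended on the probe rule. With the mean over probes in place of the brightest probe, 17 of the 34 genes were below 0, with a median of -0.0046. Of the 16 chaperones and folding enzymes 9 were then below 0, with a median of -0.047. On the brightest probes, all 34 intervals lay within 2-fold either way (89.5% of all genes), and 30 within 1.5-fold (73.3% of all genes).

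GW3965 replicate 3 was the highest of the 11 arrays for 9 of the 34 genes (5.85% of all genes): hspa5, hsp90b1, pdia4, dnajb11, sdf2l1, creld2, manf, edem3 and sesn2. The 16 chaperones and folding enzymes had a median deviation from the group mean of 0.22 on that array and of -0.15 on GW3965 replicate 4, whereas all genes had -0.015 and -0.018. Without GW3965 replicate 3, 11 of 16 chaperones were below 0 between the agonists, with hspa5 at -0.10, hsp90b1 at -0.19 and pdia4 at -0.26. The median of the 34 genes was then -0.062, and with GW3965 against DMSO hspa5 was at 0.07 in place of 0.25.

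Some genes of the integrated stress response were high on the arrays that carry replicate number 4, but the 10 listed factors and Atf4 targets as a whole were not high on all 3 of them. Their median deviation from the group mean was -0.00025 on T0901317 replicate 4, 0.14 on GW3965 replicate 4 and 0.085 on DMSO replicate 4, beside 0.080 on DMSO replicate 1. Replicate 4 was the highest array in all 3 groups for dnajb9b, herpud1, atf4a, chac1 and trib3 (5 of 34, against 7.86% of all genes), and the lowest in all 3 for canx and pdia3 (2 of 34, against 8.37%). Atf4a, atf4b, chac1 and trib3, a set put together after these values were seen, had a median deviation from the group mean of 0.15 on T0901317 replicate 4, 0.21 on GW3965 replicate 4 and 0.27 on DMSO replicate 4. On DMSO replicate 3 the deviation was -0.27. Trib3 had 2.98, 2.86 and 3.25 in T0901317 larvae, 2.99, 3.11, 2.89 and 3.25 in GW3965 larvae, and 2.95, 2.68, 2.5 and 3.08 in DMSO larvae. For trib3 the DMSO arrays alone spread further than the group means differed. What replicate number 4 shares was not tested, and the labels do not say.

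**Figure D3:**
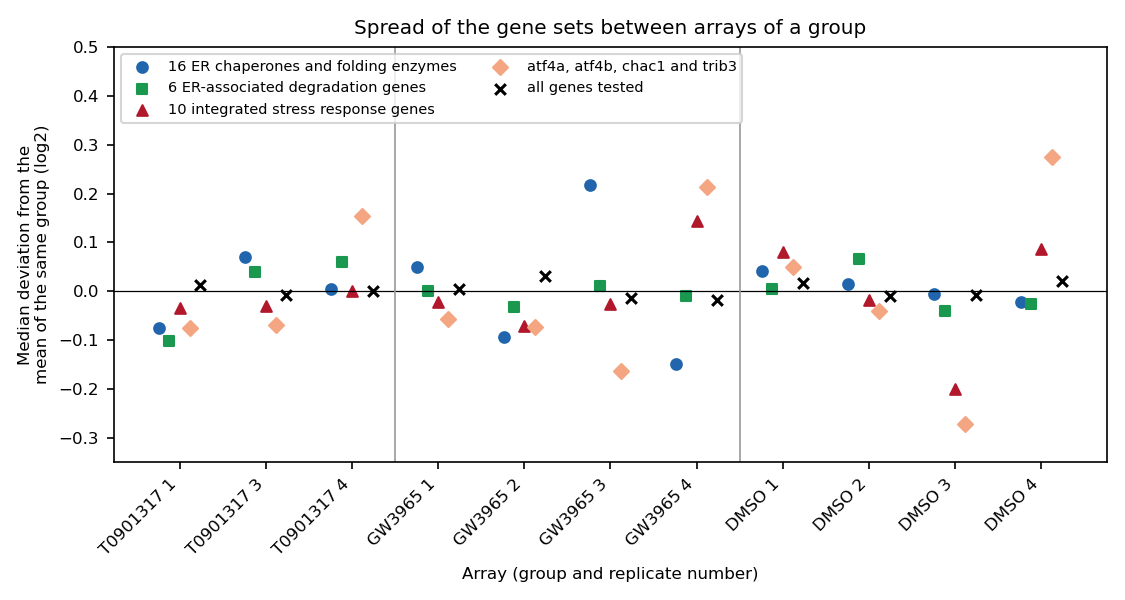
Median deviation of the genes of a set from the mean of their own group (log2, vertical axis) on each array. Circles are the 16 chaperones and folding enzymes, squares the 6 degradation genes, and triangles the 10 integrated stress response genes. Diamonds are atf4a, atf4b, chac1 and trib3, a set put together after these values were seen, and crosses all genes tested. The circle of GW3965 replicate 3 is at 0.22, and the crosses stay within 0.031 of 0. On replicate 4 of T0901317, GW3965 and DMSO the triangles are at -0.00025, 0.14 and 0.085. The diamonds of these 3 arrays are at 0.15 to 0.27.

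The 34 genes were measured by 86 probes, and 27 genes had several. Over all probes of a gene the sign was the same for 15 of these 27 with T0901317 and for 13 with GW3965. Hspa5, with 6 probes, ranged between -0.22 and -0.03 with T0901317 and between 0.01 and 0.25 with GW3965. Hyou1 was below 0 on all 3 probes with T0901317 (-0.59 to -0.12) and with GW3965 (-0.45 to -0.40). Dnajb11, with 6 probes, spanned 0, at -0.17 to 0.09 with T0901317 and -0.53 to 0.17 with GW3965. Pdia4 was below 0 on all 3 with T0901317 (-1.1 to -0.14), and its probe with the largest difference had -2.15, -1.99 and -3.02 in T0901317 larvae, -1.98, -2.16, -1.61 and -2.43 in GW3965 larvae, and -1.27, -1.32, -1.17 and -1.39 in DMSO larvae. Every agonist array of that probe lay below every DMSO array, and neither comparison passed when each probe was tested on its own.

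For sdf2l1 both the sign and the call between the agonists depended on the probe. Its brightest probe gave -0.14 ± 0.08 between T0901317 and GW3965, and the other probes gave 0.48 and 0.69. The probe at 0.69 had -3.43, -3.15 and -3.18 in T0901317 larvae, -3.85, -4.10, -3.88 and -3.95 in GW3965 larvae, and -3.60, -3.62, -3.35 and -3.41 in DMSO larvae. Tested on its own it was the only one of the 86 probes called, lower in GW3965 than in DMSO larvae (-0.45) and higher in T0901317 than in GW3965 larvae. With the mean over its probes in place of the brightest, sdf2l1 was called higher in T0901317 than in GW3965 larvae, by 0.35 (adjusted p 0.0230). Dim signals as a whole were lower on the GW3965 arrays: among the 7882 genes with the lowest mean level the median was -0.08 for GW3965 against DMSO and 0.13 for T0901317 against GW3965, while the 7882 brightest, which hold 26 of the 34 genes, had 0.07 and -0.04. The part of that shift in the sdf2l1 probe was not tested.

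**Figure D4:**
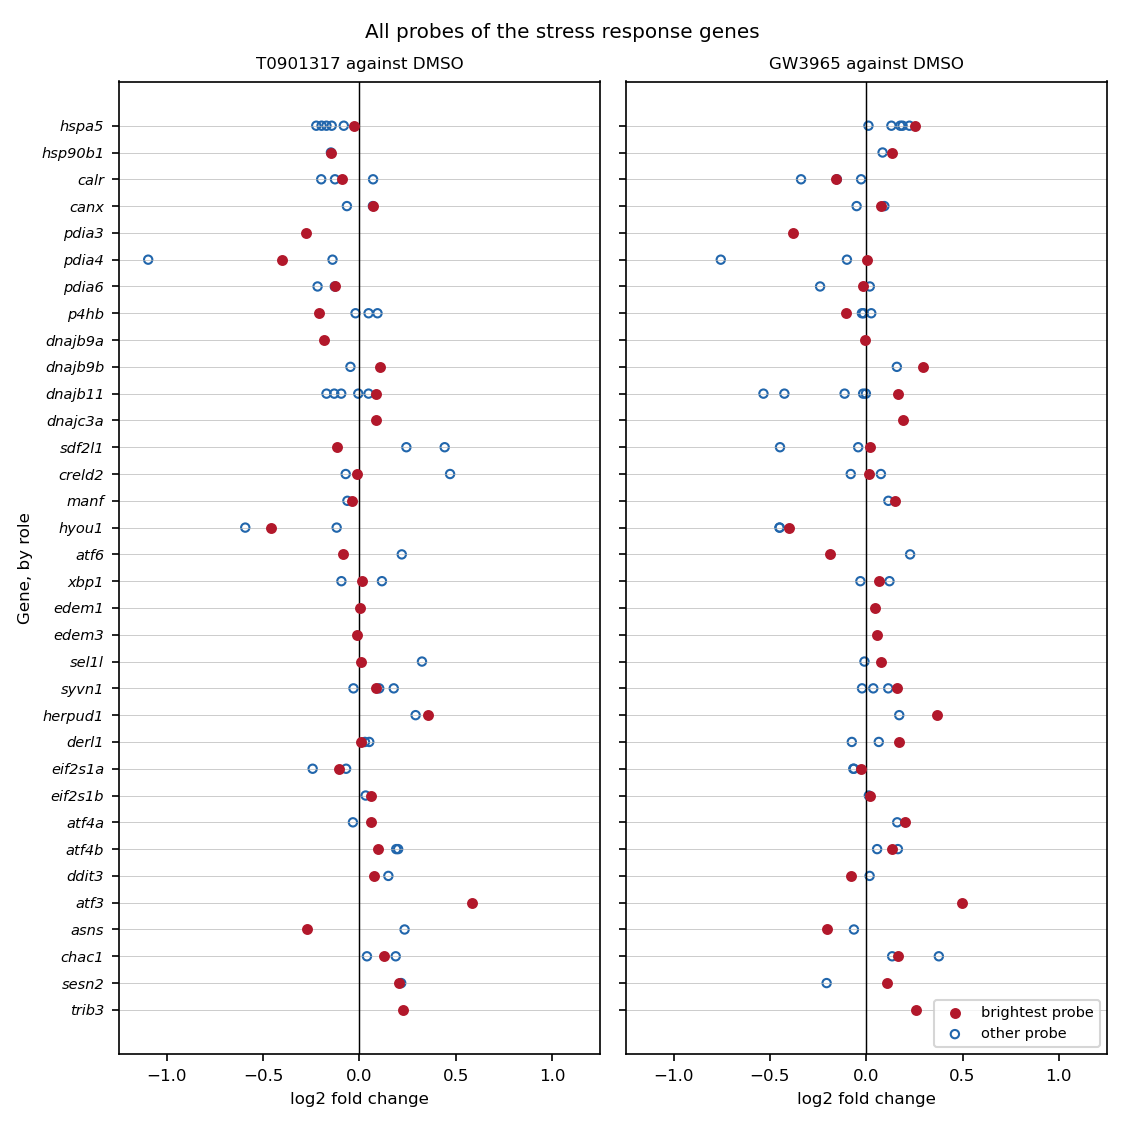
Log2 fold change of every probe of the 34 genes (rows) with T0901317 (left panel) and GW3965 (right panel) against DMSO. Filled red points are the brightest probe, used for the gene, and open blue points the other probes, with no error bars. Most genes cluster around 0, and single probes of pdia4 lie at -1.1 and -0.76.

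Around the 36 genes, 6 lists named 205 further genes of protein folding, degradation, stress signalling and heat shock, of which 150 were tested. With T0901317, 2 of the 150 were called higher and 0 lower, while 1.58% and 0.998% of all genes were. With GW3965, 2 were called higher and 2 lower, while 1.22% and 4.47% of all genes were. Between the agonists 1 was called higher in T0901317 larvae and 0 lower, while 5.26% and 0.135% of all genes were. The share of called genes among the 150 was thus near or below that of all genes, and the called genes are given as a description. The lists of other ER folding genes (37 tested) and other degradation genes (16 tested) held 0 called genes in any comparison. The same held for the lists headed cytosolic heat shock (27 tested) and mitochondrial stress (9 tested). Medians of these lists were between -0.12 and 0.12. Single genes lay further out without being called: the lowest of the heat shock list was at -0.70 with T0901317 and -1.38 with GW3965. The called genes belonged to the regulators and death genes (17 tested) and to the other integrated stress response genes (44 tested). With the replicate number as a block, 2 were called higher in T0901317 than in GW3965 larvae (fkbp9 and eif2ak2) and 2 lower (creb3l3a and ddit4), and with GW3965 against DMSO 5 were called lower, among them uggt1 of the other ER folding genes and serpinh1a and serpinh1b of the heat shock list.

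Bcl2a, a homolog of the anti-apoptotic BCL2, was called with both agonists. It had 0.07, 0.02 and -0.24 in T0901317 larvae, -0.08, 0.11, -0.12 and -0.33 in GW3965 larvae, and -0.64, -0.47, -0.48 and -0.76 in DMSO larvae. No agonist array overlapped DMSO. Bcl2a rose by 0.54 ± 0.12 (limma adjusted p 0.0463) with T0901317 and by 0.48 ± 0.11 (limma adjusted p 0.0322) with GW3965. Bcl2a had 1 probe. Atf5a, which encodes a factor translated like Atf4, had -3.16, -3.18 and -3.35 in T0901317 larvae, -3.55, -3.49, -3.30 and -3.32 in GW3965 larvae, and -3.72, -3.58, -3.96 and -3.69 in DMSO larvae. It rose by 0.51 ± 0.11 with T0901317 (adjusted p 0.0341), and with GW3965 was at 0.32 ± 0.10 (adjusted p 0.0912). A second, dimmer atf5a probe gave 0.56 ± 0.17 with T0901317 and 0.09 ± 0.16 with GW3965. Neither was called (limma adjusted p 0.165 and 0.831 over all probes). The size of the atf5a difference varied with the processing, with T0901317 between 0.22 (normexp) and 0.86 (T0901317 replicate 2 put back), not called in either, and with GW3965 down to 0.07 (normexp). Cbsb, a cystathionine beta-synthase gene of cysteine synthesis, had 4.77, 4.85 and 5.03 in T0901317 larvae, 5.01, 4.93, 4.83 and 5.19 in GW3965 larvae, and 4.52, 4.44, 4.18 and 4.71 in DMSO larvae. It rose by 0.53 ± 0.12 with GW3965 (adjusted p 0.0303) and was at 0.42 ± 0.13 with T0901317 (adjusted p 0.142).

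Mbtps2, the site-2 protease that releases both Atf6 and the lipid regulator Srebp from the membrane, had 0.14, 0.30 and -0.04 in T0901317 larvae, 0.15, -0.01, 0.15 and -0.14 in GW3965 larvae, and 0.43, 0.52, 0.43 and 0.39 in DMSO larvae. Every agonist array was below every DMSO array, and mbtps2 fell by 0.41 ± 0.09 with GW3965 (log2 scale, adjusted p 0.0298), with -0.31 ± 0.10 for T0901317 (adjusted p 0.166). Its second probe gave -0.45 with GW3965 and 0.17 with T0901317. Between the agonists mbtps2 was at 0.10 ± 0.10 by the brightest probe and not called. Its second probe, tested on its own, was called higher in T0901317 than in GW3965 larvae (0.62 ± 0.10, limma adjusted p 0.00733 over all probes). The mean over its probes was called too (0.36, limma adjusted p 0.0429). The 5 calls against DMSO of bcl2a, atf5a, cbsb and mbtps2 lie near the threshold: over 22 other settings bcl2a was called in 10 with T0901317 and 15 with GW3965, atf5a in 8, cbsb in 15 and mbtps2 in 15. With T0901317, bcl2a was not called without any 1 of the 7 T0901317 and DMSO arrays or without GW3965 replicate 1 or 3 (0.48 to 0.63, adjusted p 0.0523 to 0.169), and atf5a without any 1 of the 3 T0901317 arrays or DMSO replicates 1, 3 or 4 (0.44 to 0.57, adjusted p 0.0551 to 0.121). With GW3965, bcl2a was not called without GW3965 replicates 1, 2 or 3 or DMSO replicates 1, 3 or 4 (adjusted p 0.0534 to 0.0809). Cbsb was not called without GW3965 replicates 1, 2 or 4 or DMSO replicates 1, 2 or 3 (adjusted p 0.052 to 0.0822), and mbtps2 without GW3965 replicates 2 or 4 or any 1 of the DMSO arrays (adjusted p 0.054 to 0.0798). Atf5a is among the 7882 dimmest genes, whose median with T0901317 was 0.08.

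Eif2ak2, the eIF2 alpha kinase Pkr that double-stranded RNA activates, had the largest difference of the 150. It had -2.25, -1.75 and -2.44 in T0901317 larvae, -3.73, -4.29, -4.14 and -3.91 in GW3965 larvae, and -2.65, -3.04, -2.43 and -2.39 in DMSO larvae. The GW3965 arrays all lay below the others, while T0901317 and DMSO arrays overlapped. It fell by 1.39 ± 0.19 with GW3965 (log2 scale, a level 2.62-fold higher in DMSO larvae, n = 4 against 4, adjusted p 0.00205) and was 1.87 ± 0.20 higher in T0901317 than in GW3965 larvae (n = 3 against 4, adjusted p 0.000342), and was at 0.48 ± 0.20 with T0901317 against DMSO (adjusted p 0.303). All 22 other settings kept both calls. The estimates were smaller with normexp background correction, at -0.46 and 0.71, and the cause was not tested. Eif2ak2 had 1 probe, well above background on all 11 arrays but among the dim genes that were lower on the GW3965 slide as a whole, and the part of that shift was not tested.

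**Figure D5:**
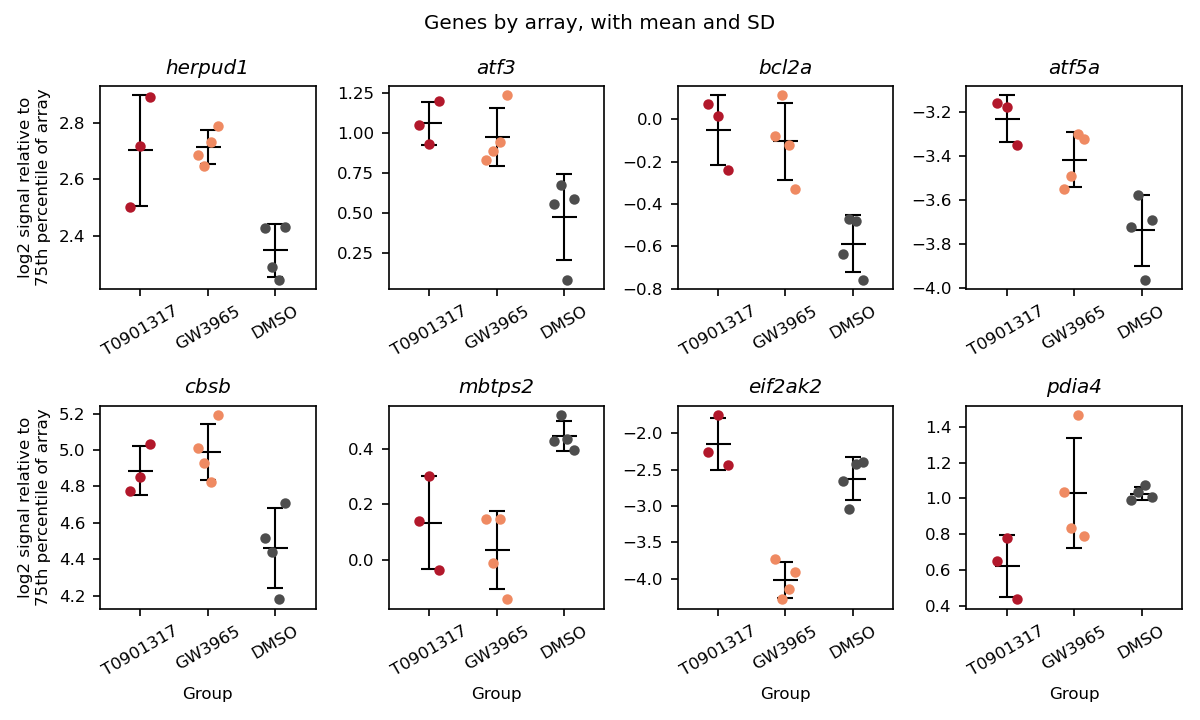
Log2 signal relative to the 75th percentile of the array (vertical axes, a scale for each gene) of herpud1, atf3, bcl2a, atf5a, cbsb, mbtps2, eif2ak2 and pdia4 in T0901317 (3 arrays), GW3965 (4) and DMSO (4) larvae. Points are arrays, and bars the mean and SD. For herpud1, atf3, bcl2a, atf5a and cbsb all agonist points lie above all DMSO points, for mbtps2 they lie below, and for eif2ak2 the GW3965 points alone are low.

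Secretory organs are rich in ER, and in bulk RNA fewer cells of a type and less RNA per cell cannot be told apart. Marker lists of exocrine pancreas, liver, intestine, notochord and leukocytes held 16, 14, 11, 9 and 10 tested genes, all well above background on all 11 arrays. The mean log2 level over the pancreas list was 4.91 to 5.00 in T0901317 larvae, 4.88 to 5.08 in GW3965 larvae and 4.79 to 5.09 in DMSO larvae, and over the liver list it was 4.47 to 4.63 in T0901317 larvae, 4.34 to 4.61 in GW3965 larvae and 4.60 to 4.76 in DMSO larvae. Over the intestine list the mean was 1.77 to 2.08 in T0901317 larvae, 1.93 to 2.14 in GW3965 larvae and 2.01 to 2.32 in DMSO larvae. Of its 11 genes 2 were above 0 with T0901317 and 3 with GW3965. The notochord list had 2.03 to 2.17 in T0901317 larvae, 1.92 to 2.03 in GW3965 larvae and 1.83 to 2.1 in DMSO larvae, and the leukocyte list -0.11 to 0.01 in T0901317 larvae, -0.13 to 0.10 in GW3965 larvae and -0.01 to 0.14 in DMSO larvae. With T0901317, sycn.2 of the pancreas (-0.61), ahsg2 of the liver (-1.44) and lyz of the leukocytes (-0.87) were called lower, and fabp10a of the liver (0.47) higher. With GW3965, sycn.2 (-0.53), ahsg2 (-1.69), cp of the liver (-0.40), lyz (-1.01) and spi1b of the leukocytes (-0.36) were called lower. Called higher with GW3965 were fabp10a (0.40) and cel.1 of the pancreas list (0.61). Over the 22 other settings the T0901317 calls of sycn.2, ahsg2, lyz and fabp10a held in 18, 22, 21 and 8, and the GW3965 calls of sycn.2, ahsg2, cp, lyz, spi1b, fabp10a and cel.1 in 19, 22, 16, 22, 19, 10 and 14. The second fabp10a probe gave 0.26 with T0901317 (adjusted p 0.308 over all probes) and 0.27 with GW3965 (adjusted p 0.177). For cel.1 the second probe gave 0.29 with GW3965 (limma adjusted p 0.252 over all probes). The mean over cel.1 probes was 0.45 with GW3965 and not called. Of the intestine and notochord markers 0 were called. Above 0 with T0901317 and GW3965 were 9 and 10 of the 16 pancreas genes, and 4 and 5 of the 14 liver genes. For the notochord list these counts were 6 and 3 of 9, and for the leukocyte list 4 and 5 of 10. The called markers are thus single genes of lists whose members went both ways. The part of these markers in the values of the stress response genes was not tested.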

How the data were processed

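RNA was measured on 1-colour Agilent zebrafish arrays. Per the file headers, spots were read by Agilent Feature Extraction 11.0.1.1. Each deposited value is a processed signal, a linear intensity from which the authors' software subtracted background and which was not scaled between arrays. Groups, replicates and doses were taken per the labels. Probes were named by RefSeq accession through the RefSeq gene table of assembly GRCz12tu (25069 of 43603 probes), for names only. No sequences or positions are given.

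Flagged spots were left out, spots of a probe averaged, and the array's own 75th percentile was subtracted from log2 signal. A probe was tested if well above background on at least 3 of 11 arrays, and the brightest tested probe stood for a gene. Group means of the 3 groups were fitted with limma 3.58.1 in R 4.3.3 (lmFit, eBayes, 8 residual and 2.69 prior degrees of freedom), with Benjamini-Hochberg adjustment over all 23645 genes. The script was tested on simulated data. The number of arrays limits precision. P-values measure the spread between pools, which the design text calls biological quadruplicates.

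Genes, lists and named genes were chosen with earlier results of these data known. Named were all 36 genes, called genes of the further lists (up to 4 a list), called markers (up to 2 a list) and fads2 as a check. Deviations from the group means correlated within all 3 same-numbered pairs of the agonists (r 0.132, 0.280 and, for replicate 4, 0.498). The DMSO pairs (0.026 to 0.463) did not all exceed 0.1. The labels do not say what replicate numbers share. All main estimates come from the fit without pairing, and the replicate block is among the 22 alternatives. The 22 alternatives were background correction, scaling, filters, probe rule, the left-out array, a replicate block, 2-group fits, eBayes options and left-out arrays.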

Additional observations from a re-analysis of the deposited data

Results flagged for a closer look

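In 5 of the 68 pairs of a gene and a group of 4 arrays, 1 array stood apart by Dixon's test, which chance alone does in about 1 in 20 groups. Atf4a at 5.59 and atf4b at 2.55 were high on GW3965 replicate 4. Dnajb11 at 0.83 was high on GW3965 replicate 3, the array that was also highest for 8 other genes of the set. Eif2s1b at 3.70 was high on DMSO replicate 1, and dnajb9b at -2.16 was low on DMSO replicate 3.

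For 2 genes outside the set the effects of the agonists differed by the test of the difference itself, on the brightest probe. Eif2ak2 was 1.87 higher in T0901317 than in GW3965 larvae (limma adjusted p 0.000342), and the leukocyte factor gene spi1b was at 0.31 (adjusted p 0.0221). The spi1b call held in 11 of 22 other settings, with an adjusted p of up to 0.144 in the rest, and a second probe gave 0.21 (adjusted p 0.668 over all probes). Mbtps2 differed between the agonists on its second probe and with the mean over its probes, but not on its brightest probe.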

How the results depend on the processing

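Of the 102 fold changes of the 34 genes, 97 were not called in any of the 22 alternatives and 5 were called in at least 1. A sign change was counted as a reversal only where the gene was called in 1 of the 2 settings compared. The one reversal was sdf2l1 between the agonists, -0.14 as reported and 0.35 with the mean over probes, where its other probes enter. Counting every sign change, 48 of the fold changes not called as reported changed sign in at least 1 alternative. With GW3965 against DMSO the number of stress response genes called higher was 1, and it was 2 with normexp, with the replicate block and with trend and robust, and 0 with quantile normalization, no filter, the mean over probes and T0901317 replicate 2 put back. It was 0 to 1 when single arrays were left out and 0 without replicate 4 in all groups, an alternative chosen after seeing the data. The replicate block called 1 gene lower, pdia3. With T0901317, trend and robust called 1 gene higher, atf3, and between the agonists the mean over probes called 1, sdf2l1. Medians ran between -0.024 and 0.049 for T0901317, 0.039 and 0.103 for GW3965, and -0.109 and -0.0046 between the agonists, the last value with the mean over probes.

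Of the 150 further genes, those called higher with T0901317 (2) numbered 1 with normexp, quantile normalization, T0901317 replicate 2 put back, the replicate block and trend and robust, and 0 with no filter, with only the 2 groups compared and without replicate 4 in all groups; single arrays left out gave 0 to 2. Filter on all arrays, the replicate block and trend and robust each called 1 lower, creb3l3a. With GW3965, those called higher (2) numbered 1 with quantile normalization and T0901317 replicate 2 put back and 4 with trend and robust, and 0 to 3 with single arrays left out (3 without T0901317 replicate 4). Those called lower (2) numbered 5 with the replicate block and with only the 2 groups compared, 4 with trend and robust, and 1 to 4 with single arrays left out (4 without T0901317 replicate 4, 1 without GW3965 replicate 2 or 4 or DMSO replicate 1, 2 or 3). Between the agonists those called higher (1) numbered 3 with normexp, the mean over probes and trend and robust, 2 with the filter on all arrays, the replicate block and only the 2 groups compared, and 1 to 2 with single arrays left out (2 without DMSO replicate 1, 3 or 4). Those called lower (0) numbered 1 with quantile normalization and 2 with the replicate block, and 0 to 1 with single arrays left out (1 without DMSO replicate 3). Apart from these counts the replicate block changed no other call of the stress response genes than pdia3 and atf3 with GW3965. Fits without an array have fewer samples; otherwise the cause was not tested. A slide block was not run, since each slide holds 1 group.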
